A study of Mus musculus with 6 samples.

Results

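The metabotropic glutamate receptors are the G protein-coupled receptors of glutamate, and 6 of their genes (Grm2, Grm3, Grm4, Grm5, Grm7 and Grm8) were followed by name among the 21958 protein-coding genes of the deposited table. All 6 passed the filter on low counts, which left 12255 genes for testing. The receptors fall into 3 groups by sequence and signalling. Group I, here Grm5, couples to Gq proteins and phospholipase C, lies mainly on the postsynaptic side and is known for a form of long-term depression that needs protein synthesis in dendrites. Group II (Grm2, Grm3) and group III (Grm4, Grm7, Grm8) couple to Gi and Go proteins, lower cyclic AMP and dampen transmitter release at many terminals. Grm3 is also expressed by astrocytes. The table holds Grm6 as well, which is not among the 6.

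RNA came from synaptoneurosomes (SN), a filtered brain fraction enriched in synapses with pre- and postsynaptic parts, prepared from hippocampus and the neighbouring cortex of FVB mice aged 6 to 8 weeks. One group of 3 libraries held total RNA of unstimulated SN. The other group of 3 held RNA of the light and heavy polyribosomal fractions of SN given 50 µM NMDA and 10 µM glutamate for 30 s, then the NMDA-R antagonist APV at 120 µM, and incubated for 20 min. By the methods, SN of several male mice were pooled and divided into aliquots, and unstimulated SN stayed on ice with cycloheximide. Both groups thus came from mice of the same strain, and the labels name no transgene. Stimulation and fraction changed together, so they cannot be told apart in any value below. The labels do not say whether the replicates came from separate animals, and p-values measure the spread between these 6 libraries.

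Counts per library summed to between 5294482 and 7361580 on polyribosomes and between 1044955 and 3738022 in total RNA, where replicate 3 was the shallowest. Together the 6 receptors took 0.103% to 0.122% of the counts on polyribosomes and 0.0856% to 0.123% in total RNA, so they overlapped as a pool. Markers of neurons and of glia were both present. In counts scaled to library size (CPM), the 5 excitatory neuron markers summed to 5624 to 7518 on polyribosomes against 4978 to 6657 in total RNA. The 10 astrocyte markers summed to between 44894 and 49229 on polyribosomes against 34519 to 40410 in total RNA. Most of this sum was Slc1a2, which averaged 31981 against 27872 CPM and whose exons overlap a gene on the other strand. Gfap, the astrocyte intermediate filament, averaged 957 against 574, and Aqp4 averaged 590 against 550. Same-numbered libraries of the 2 groups deviated together from their group means (Pearson r across genes of 0.37, 0.26 and 0.38, given as a description). Libraries of different numbers gave r from -0.35 to 0.11. Deviations within a group cancel out, which ties all these values together. Same-numbered libraries are called a preparation, so fits with the replicate number as a block are given where they change a call.

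The start codon is where ribosomes begin on each of these mRNAs, so the 20 bases around it are shown for the 6 receptors, read from the Gencode vM21 transcript with the longest coding sequence, with the start codon in capitals.
Grm5: tttcctaaaATGgtccttct
Grm2: tggggggccATGgaatccct
Grm3: ccaggattcATGaagatgtt
Grm4: ctttccgaaATGtccgggaa
Grm7: cggagcggcATGgtccagct
Grm8: gcggagaaaATGgtttgtga
The window was searched on the mRNA strand for ANNATGG or GNNATGG, the letters of a favourable initiation context. Grm5, Grm2, Grm7 and Grm8 held a match, and Grm3 and Grm4 did not. Of the 20002 genes of the table with such a window, 41.0% held a match. A match is a description of letters and was not related to the measured levels.

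The genes differed more in their layout than in their proteins' length. The coding sequences ran from 2616 nt in Grm2 to 3609 nt in Grm5. The genomic spans (GRCm38) ran from 13.0 kb for Grm2, on chromosome 9 from 106643095 to 106656082, to 921.6 kb for Grm7, on chromosome 6 from 110645581 to 111567230. Grm8 lies on the same chromosome from 27275119 to 28135178, Grm3 on chromosome 5 from 9485541 to 9725170, Grm5 on chromosome 7 from 87602544 to 88134907, and Grm4 on chromosome 17 from 27422387 to 27513341. The GC content of these transcripts was highest in Grm4 (61.7%) and Grm2 (56.9%) and lowest in Grm8 (45.9%). In Gencode vM21, exons of Grm2 overlap those of the antisense gene Gm28111 and exons of Grm7 those of the antisense gene Gm20387. The libraries were strand-specific, but use of the strand in counting is not given in the sources used here, so reads of these 2 genes and of their antisense partners cannot be told apart with certainty.

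Grm2 was the receptor with the largest difference between polyribosomes and total RNA. It encodes mGlu2, an autoreceptor that limits glutamate release. Its raw counts were 1024, 1028 and 955 on polyribosomes and 332, 297 and 122 in total RNA. Scaled to library size, with edgeR's TMM factors, these were 139, 155 and 197 CPM on polyribosomes and 82.4, 99.5 and 117 CPM in total RNA for replicates 1 to 3. Every polyribosome library lay above every total RNA library. The means were 163 ± 30.0 and 99.6 ± 17.3 CPM (SD, n = 3), and their log2 ratio in the fit was 0.73 (standard error, SE, of 0.19, 95% interval 0.33 to 1.13), or 1.66-fold. This did not pass the study's threshold of 0.01 (adjusted p = 0.0224, quasi-likelihood test of edgeR, Benjamini-Hochberg adjusted over 12255 genes). With the replicate block the log2 ratio was 0.71 and it passed (adjusted p = 2.4e-06, edgeR), and it also passed in DESeq2 (0.75, adjusted p = 0.00523) and when all genes with at least 1 count were tested (0.75, adjusted p = 0.00526, edgeR). It did not pass with an offset for the GC content and length of transcripts (0.56, adjusted p = 0.0384, edgeR). Nor did it with total counts only (0.62, adjusted p = 0.0314, edgeR). Leaving out any 1 library gave adjusted p from 0.0161 to 0.137 (edgeR), the highest without total RNA replicate 1 (0.59). The 3 preparations gave 0.75, 0.64 and 0.75, and Grm2 lay at the 94.1th percentile of the log2 ratios of all genes tested.

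**Figure D1:**
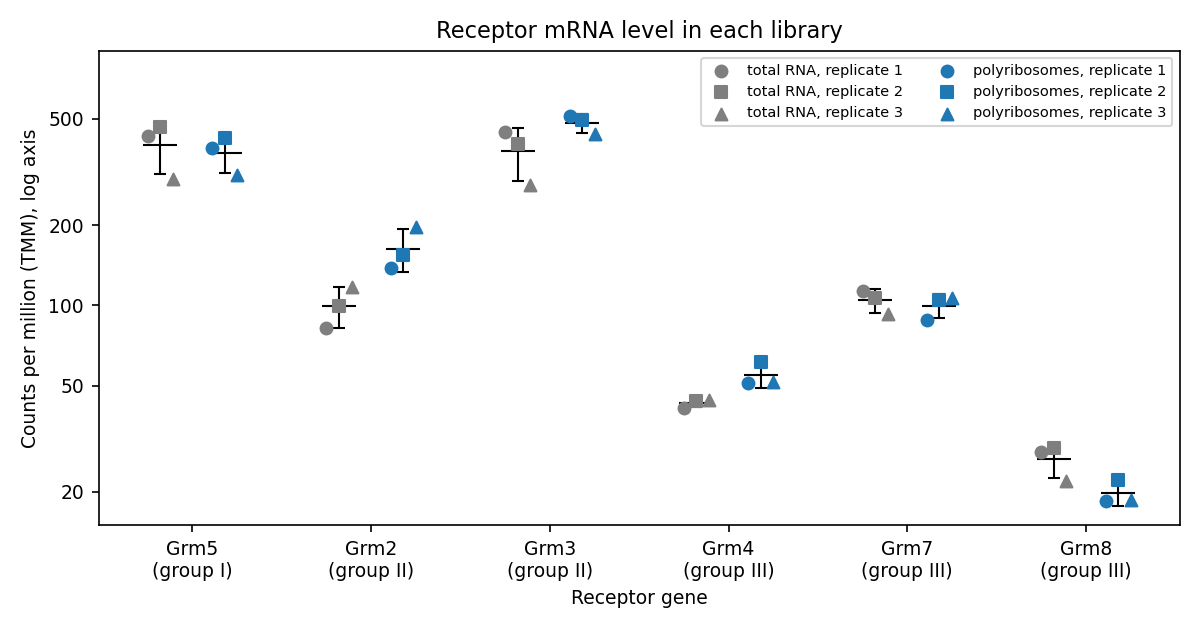
Level of each receptor in CPM (TMM scaling, log axis) in the 3 total RNA libraries (grey) and the 3 polyribosome libraries (blue), with marker shape for the replicate and the bar and whiskers for mean ± SD. The polyribosome points of Grm2 (139 to 197) lie above its total RNA points (82.4 to 117), and those of Grm4 (51.0 to 61.3) above 41.2 to 44.1, while the groups of the other receptors overlap.

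Grm3, the other group II receptor, had the highest level per length of the 6 in both groups. Its raw counts were 3785, 3297 and 2132 on polyribosomes and 1803, 1203 and 295 in total RNA. These were 512, 497 and 439 CPM on polyribosomes and 448, 403 and 283 CPM in total RNA. Total RNA replicate 3 was the lowest library, and the groups overlapped because total RNA replicate 1 exceeded polyribosome replicate 3. The fitted log2 ratio was 0.35 (SE 0.19, 95% interval -0.06 to 0.75, adjusted p = 0.222, edgeR). In the preparations it was 0.19, 0.30 and 0.63. Without total RNA replicate 3 it was 0.18, the lowest value when any library was left out. With the replicate block it did not pass (0.37, adjusted p = 0.0152, edgeR), and with the block and an offset for the GC content and length of transcripts together it did (0.44, adjusted p = 0.00259, edgeR).

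Grm5 encodes mGlu5, the group I receptor that binds Homer scaffolds. It had 2870, 2806 and 1492 counts on polyribosomes and 1742, 1389 and 311 in total RNA, which were 388, 423 and 307 CPM and 433, 465 and 298 CPM. Replicate 3 was the lowest library in both groups, and the groups overlapped throughout. The fitted log2 ratio was -0.10 (SE 0.20, adjusted p = 0.760, edgeR), with a 95% interval from -0.53 to 0.32. The interval thus spans changes of either sign. Its sign turned with the GC and length offset (0.08) and without polyribosome replicate 3 or total RNA replicate 2 (0.020 and 0.023).

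Among the group III receptors, which act mostly at presynaptic active zones, Grm4 stood above its total RNA libraries in every polyribosome library and Grm8 stood below in every preparation, but neither passed the threshold. Grm4 had 377, 407 and 251 counts on polyribosomes and 166, 131 and 46 in total RNA. These were 51.0, 61.3 and 51.7 CPM against 41.2, 43.9 and 44.1 CPM, and the groups did not overlap. Its fitted log2 ratio was 0.35 (SE 0.17, 95% interval -0.01 to 0.71, adjusted p = 0.164, edgeR). With the GC and length offset it was 0.03 (adjusted p = 0.941, edgeR), and Grm4 is the member with the highest GC content.

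Grm8 had the fewest counts of the 6, with 137, 147 and 91 counts on polyribosomes and 114, 87 and 23 in total RNA. These were 18.5, 22.1 and 18.7 CPM on polyribosomes and 28.3, 29.1 and 22.1 CPM in total RNA. Polyribosome replicate 2 and total RNA replicate 3 met at 22.1 CPM, and the 23 counts of the latter give a 95% Poisson interval of 14.0 to 33.1 CPM, for counting error only. The fitted log2 ratio was -0.46 (SE 0.19, 95% interval -0.86 to -0.06, adjusted p = 0.106, edgeR), with -0.61, -0.40 and -0.24 in the preparations. It was -0.25 with the GC and length offset.

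Grm7, a receptor of low glutamate affinity, had 652, 694 and 520 counts on polyribosomes and 458, 318 and 97 in total RNA. These were 88.2, 105 and 107 CPM against 114, 106 and 93.0 CPM. The groups overlapped, and the preparations gave log2 differences of -0.37, -0.03 and 0.20, in both directions. The fitted log2 ratio was -0.07 (SE 0.16, 95% interval -0.42 to 0.27, adjusted p = 0.790, edgeR).

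**Figure D2:**
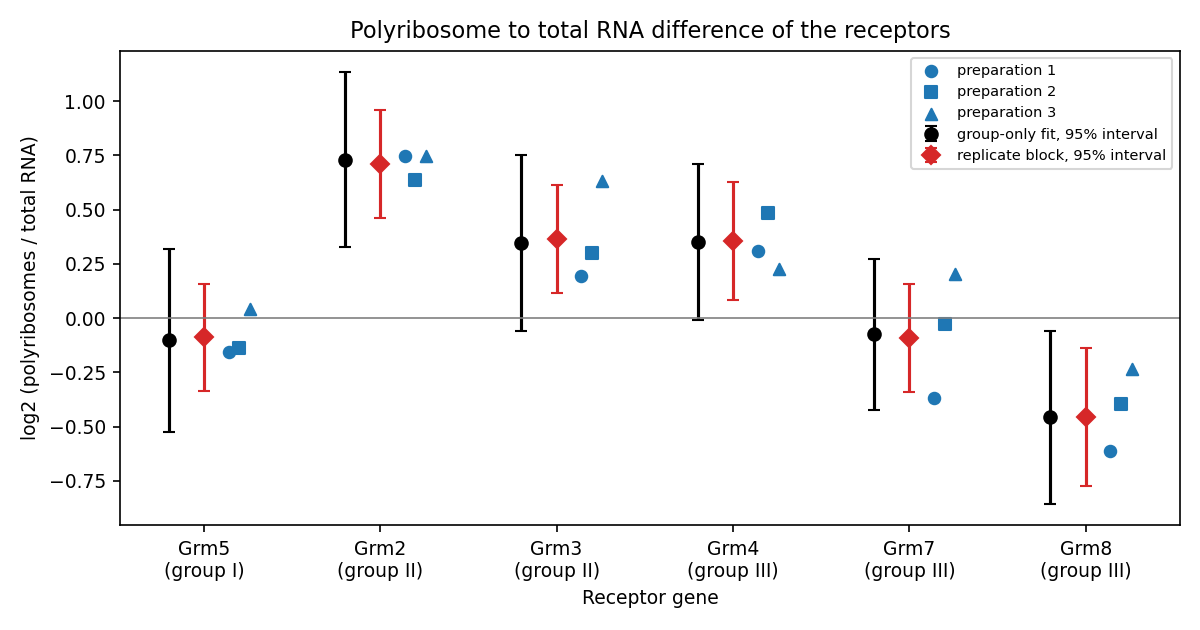
Log2 ratio of polyribosomes to total RNA for each receptor, from the fit with group as the only term (black) and the fit with the replicate block (red), both with 95% intervals, and in each preparation (blue). The group-only interval of Grm2 (0.33 to 1.13) lies above 0 and that of Grm8 (-0.86 to -0.06) below it, while those of Grm3, Grm4, Grm5 and Grm7 span 0.

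In the group-only fit none of the 6 receptors passed an adjusted p of 0.01 in edgeR, where 3.07% of all genes tested did, and 2 of them (Grm2 and Grm8) had an unadjusted p under 0.05, against 32.5% of all genes. Under the replicate block 1 of 6 passed, Grm2, against 25.0% of all genes, and with the block and the offset Grm2 and Grm3 passed as higher, as did 8.24% of all genes. In DESeq2 Grm2 alone passed, against 7.14%, as it did with all genes of at least 1 count, against 6.23%. The groups did not overlap for 2 of 6 receptors (Grm2 and Grm4), which is close to the 36.2% of all genes. Grm2, Grm3 and Grm4 were higher in all 3 preparations, where 30.2% of all genes were, and Grm8 was lower in all 3, where 30.6% were. With so few receptors a single call moves these shares far, and nothing particular to the receptors is read from them.

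The makeup of the receptor pool was compared by group, as a share of the 6 receptors' counts within each library, which needs no scaling between libraries. Group II took a larger share on polyribosomes in every preparation. It held 54.4% (95% Clopper-Pearson interval 53.3 to 55.4), 51.6% (50.5 to 52.7) and 56.7% (55.4 to 58.1) on polyribosomes. In total RNA it held 46.3% (44.8 to 47.7), 43.8% (42.1 to 45.5) and 46.6% (43.3 to 50.0). The groups of libraries did not overlap, and the means were 54.2 ± 2.56% and 45.6 ± 1.55% (SD, n = 3). The difference of 8.67 percentage points had an exact permutation p of 0.1, the smallest that 3 against 3 libraries allow, so this test cannot pass 0.05 here.

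The share of group I, that of Grm5, did not overlap either and was smaller on polyribosomes, with 31.1 ± 3.24% on polyribosomes and 37.7 ± 2.88% in total RNA (SD, n = 3, two-sided exact permutation p = 0.1). Its libraries ranged from 27.4% to 33.5% on polyribosomes and from 34.8% to 40.6% in total RNA. The shares of a library add up to the whole, so a larger share of group II leaves less for the others, and these are not separate results. In CPM the fitted log2 ratio of Grm5 itself was -0.10 (adjusted p = 0.760, edgeR). By CPM the groups did not overlap for 36.2% of all genes, and no such figure was computed for shares. Group III held 14.6 ± 1.35% and 16.7 ± 1.60%, and its libraries overlapped (two-sided exact permutation p = 0.2, n = 3). Counts divided by the exon length of each gene gave a larger group II share, 69.7% on polyribosomes against 62.2% in total RNA, a difference of 7.47 percentage points. On that scale group III did not overlap either (13.8% against 16.9%, exact permutation p = 0.1). Without Grm3 in the pool, an alternative chosen after seeing the data, the difference of group II was 7.93 points (exact permutation p = 0.3).

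**Figure D3:**
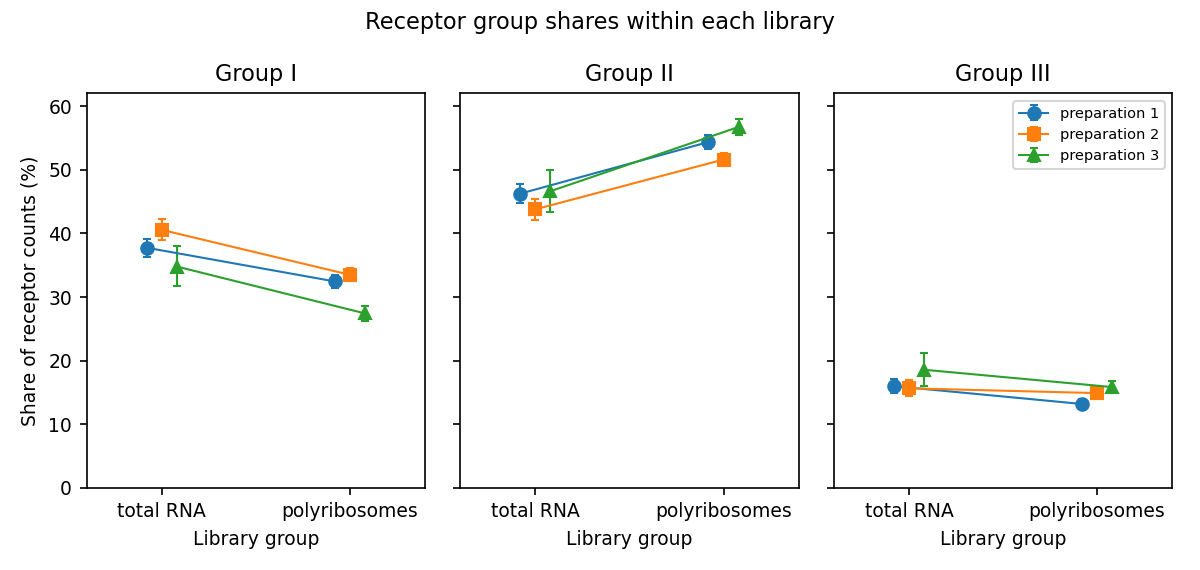
Share of the summed counts of the 6 receptors that group I (Grm5), group II (Grm2 and Grm3) and group III (Grm4, Grm7 and Grm8) held in each library, in percent, with 95% Clopper-Pearson intervals, which cover counting error only. Lines join the libraries of a preparation, and all 3 lines slope up for group II, from 43.8 to 46.6% in total RNA to 51.6 to 56.7% on polyribosomes, and down for group I.

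Ratios of receptors within a library describe the same counts gene by gene. The log2 ratio did not overlap between the groups of libraries for 9 of the 15 pairs of receptors (60.0%), against 34.7% of all pairs of genes with a count in every library, and the 15 pairs share the same 6 genes. The largest shift was that of Grm2 to Grm8, from a log2 ratio of 1.91 ± 0.45 in total RNA to 3.03 ± 0.31 on polyribosomes (SD, n = 3). Grm2 to Grm5 shifted by 0.80, with overlap between the groups of libraries (exact permutation p = 0.3). Grm3 to Grm8 shifted by 0.79 and Grm2 to Grm7 by 0.78, without overlap. Grm3 and Grm5 were about equal in counts in total RNA, with a log2 ratio of -0.08 ± 0.13, and Grm3 exceeded Grm5 on polyribosomes by 0.38 ± 0.14. The 4 shifts without overlap named here had an exact permutation p of 0.1 and an adjusted p of 0.167 over the 15 pairs. The ratios of Grm5 to Grm7 and of Grm3 to Grm4 moved by -0.02 and 0.04, within the spread of the libraries.

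The order of the receptors' levels was taken per kilobase of exon (CPM per kb, exon lengths of Gencode vM21), since longer mRNAs collect more reads. In total RNA Grm3 led with 124 ± 28.0 CPM per kb (SD, n = 3), followed by Grm5 at 49.0 ± 10.9, Grm7 at 24.3 ± 2.45, Grm2 at 21.1 ± 3.67, Grm4 at 7.72 ± 0.29 and Grm8 at 6.87 ± 1.00. The libraries of Grm7 and Grm2 overlapped, as did those of Grm4 and Grm8, so neither of these neighbours was told apart by its spread. On polyribosomes Grm2 stood before Grm7. It had 34.7 ± 6.36 CPM per kb there, with libraries from 29.4 to 41.7, while Grm7 had 23.3 ± 2.39, from 20.6 to 25.0. Grm3 (158 ± 12.6) and Grm5 (45.8 ± 7.28) kept the top of the order, and Grm4 (9.80 ± 1.03) and Grm8 (5.14 ± 0.53) the end. Grm5 and Grm2 overlapped there, and in polyribosome replicate 3 Grm2 (41.7) stood above Grm5 (37.7), while the libraries of the other neighbours in that order did not overlap. The exon length of Grm3, 3049 nt, rests on a single annotated transcript, and its level per kb depends on it. For Grm5 and Grm7 the exon lengths, 8143 and 4290 nt, join several transcripts. The transcripts used for their start windows are shorter, 4500 and 3127 nt. The order of Grm5, Grm7 and Grm2 with other lengths was not tested.

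Outside the 6, Grm6, the receptor of retinal bipolar cells, had no count in any of the 6 libraries, which allows a level of up to 0.110 CPM over all libraries together, taking 3 counts as the limit.

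The signalling partners of the receptors were described in 9 lists. Of their 65 genes tested, 0 were higher and 1 was lower at an adjusted p of 0.01 (edgeR, group only), where 0.710% of all genes were higher and 2.36% lower. At an unadjusted p under 0.05, 9 were higher and 11 lower, and 32.5% of all genes passed in either direction. With the replicate block 11 were higher and 9 lower, against 11.8% and 13.2% of all genes, and DESeq2 gave 1 and 4, against 3.31% and 3.83%. Without total RNA replicate 2 no gene of the lists was lower by this test.

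Upstream of the receptors, 8 genes of glutamate release and clearance had a median log2 ratio of 0.18, against 0.00 over all genes. Of these 8, 7 were positive, as were 50.1% of all genes. Glul, the glutamine synthetase of astrocytes, averaged 4552 CPM on polyribosomes against 2760 in total RNA, a log2 ratio of 0.72 that missed the threshold (adjusted p = 0.0464, edgeR) and passed with the block (adjusted p = 4.03e-06, edgeR). Its exons overlap those of Teddm2 on the other strand. Of 4 genes that make, store or degrade N-acetylaspartylglutamate (NAAG), a peptide agonist of mGlu3, none passed. Folh1, the peptidase that degrades NAAG, stood at 0.34 and Rimklb, a NAAG synthetase, at -0.30, on the log2 scale.

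For group I, the Gq subunit Gnaq had a log2 ratio of -0.33 and Gna11 of 0.04. The 12 effectors had a median of -0.19, which was -0.05 with the GC and length offset, and 4 were positive. Plcb3, a phospholipase C, was at 0.66 and Plcb4, another, at -0.53, and neither passed (adjusted p of 0.0286 and 0.0806, edgeR). With the block Plcb3 passed as higher and Plcb1, Plcb4 and Prkca as lower (log2 ratios of 0.66, -0.40, -0.54 and -0.39). Exons of Plcb1 overlap a gene on the other strand. The 11 scaffolds and binding partners had a median of 0.11, which was -0.20 with the GC and length offset and -0.07 without total RNA replicate 1. Homer1, the scaffold of mGlu5, averaged 91.5 CPM on polyribosomes against 173 in total RNA, a log2 ratio of -0.93 (adjusted p = 0.0127, edgeR). It passed with the block (adjusted p = 1.38e-09, edgeR) and in DESeq2 (adjusted p = 0.00137). Siah1a, a ubiquitin ligase, had -0.78 (adjusted p = 0.0605, edgeR) and passed with the block (adjusted p = 0.00495, edgeR), and its exons overlap a gene on the other strand. With the block 3 of the 11 scaffolds and binding partners passed as lower, Homer1 and Siah1a among them, and 3 passed as higher. Over all genes the block called 13.2% lower and 11.8% higher.

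For groups II and III, 4 of 5 G protein alpha subunits were positive, against 50.1% of all genes, with a median of 0.17. Gnai2 had a log2 ratio of 0.49 (adjusted p = 0.0529, edgeR) and Gnao1, the alpha subunit of Go, one of 0.33. With the block Gnai2 passed (adjusted p = 8.39e-04, edgeR). The 10 effectors, adenylyl cyclases and GIRK potassium channels, had a median of 0.13 and none passed in either fit. The channel subunits Kcnj9 and Kcnj3 marked their range, at 0.36 and -0.33. Exons of both, and those of Gnao1, overlap a gene on the other strand. Among 7 binding partners with a median of 0.31, Slc9a3r1, a PDZ scaffold, averaged 132 CPM on polyribosomes against 69.8 in total RNA, a log2 ratio of 0.97 (adjusted p = 0.0192, edgeR). Ranbp2 had -0.75 (adjusted p = 0.0133, edgeR). Both passed with the block, in opposite directions, and in DESeq2 (adjusted p = 0.00284 and 0.0016). With the block 3 of the 7 binding partners passed as higher and 2 as lower. Over all genes the block called 11.8% higher and 13.2% lower. Of 6 genes of desensitization none passed in either fit. Adrbk2, a receptor kinase, and Rgs4, which shortens G protein signals, each had a log2 ratio of -0.35.

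**Figure D4:**
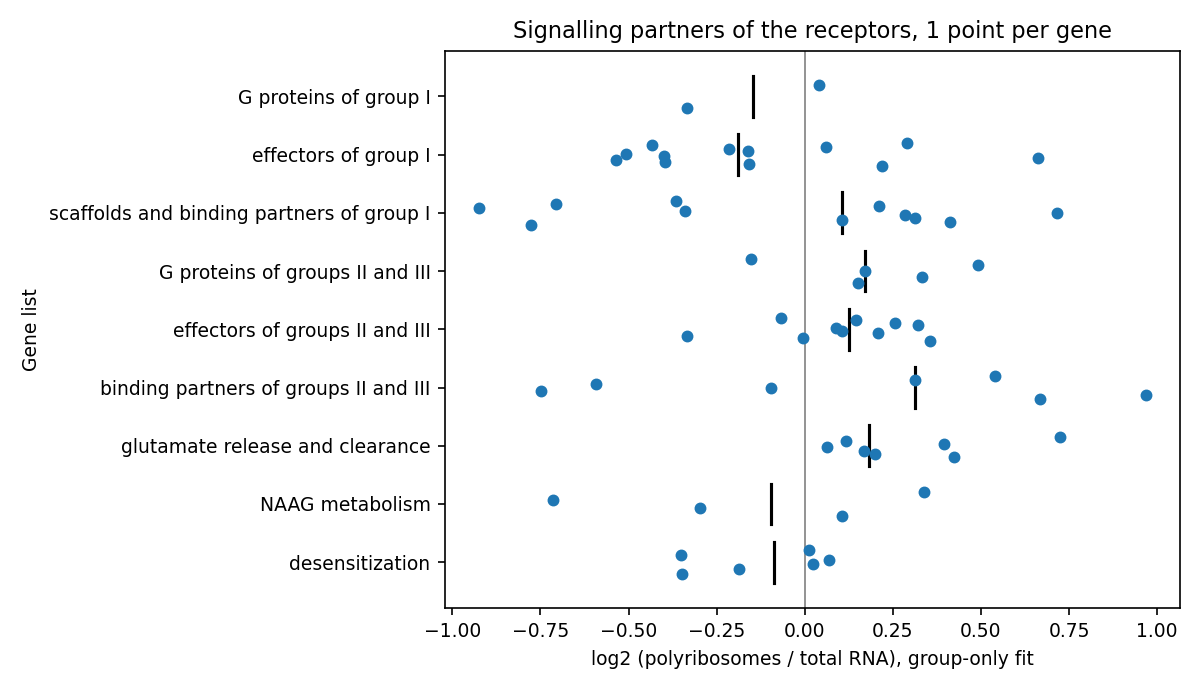
Log2 ratio of polyribosomes to total RNA in the 9 lists of signalling partners, 1 point per gene that did not pass an adjusted p of 0.01 (edgeR, group only), with the median of all tested genes of each list as a black line. The points lie on both sides of 0 in every list but that of glutamate release and clearance, where those shown lie above 0.

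Markers of glia and endothelium, and most interneuron markers, stood higher on polyribosomes, as did Grm2, Grm3 and Grm4. All 10 astrocyte markers had a log2 ratio above 0 (median 0.48), where 50.1% of all genes did. So did all 6 oligodendrocyte markers (median 0.38), all 3 markers of their precursors (0.78), all 6 microglia markers (0.45) and all 4 endothelial markers (0.23). None of the markers in these lists passed the threshold in the group-only fit. With the block 7, 3, 2, 3 and 1 did, all of them higher, as were 11.8% of all genes. In preparation 2 the endothelial median was -0.16. The excitatory neuron markers had a median of 0.03 (3 of 5 positive) and the interneuron markers one of 0.42 (4 of 6). With the block 2 excitatory and 3 interneuron markers passed as higher, and 1 and 2 as lower, as were 13.2% of all genes. The part of these cell types in the values of Grm2, Grm3 and Grm4 was not tested. These bulk samples of synaptoneurosomes give neither a number of cells of any type nor an amount of RNA per cell.

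Genes with the most similar profile to each receptor were found by the root mean square difference of log2 CPM over the 6 libraries, each gene centred on its own mean, among 8959 other genes with an average of at least 10 CPM. The 6 libraries share preparations and depth, and the measure is a description. For Grm2 these were Efemp1 and Selm, at a distance of 0.03 and 0.04 log2 units, against a median of 0.46 over the 8959 genes. The smallest of so many distances lie below their median by the way they were chosen. Grm3 was closest to Rheb (0.02) and Tm2d2 (0.04), Grm4 to Syngr1 (0.03) and Hey1 (0.04), and Grm5 to Stard4 and Ssr3 (0.04 each). The nearest to Grm7 were Pgm3 (0.04), whose exons overlap another gene, and Stard8 (0.05), and to Grm8 Lonrf2 (0.04) and Ppil4 (0.06). Within the family the closest profiles were those of Grm7 and Grm8 (0.20) and the most distant those of Grm2 and Grm8 (0.64).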

How the data were processed

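RNA of 6 libraries, 3 of polyribosomes from NMDA-R-stimulated synaptoneurosomes and 3 of total RNA from unstimulated ones, was sequenced. The authors depleted ribosomal RNA, mapped reads to GRCm38 with STAR (2.5.2b per the submitters' processing notes), assigned them to genes of Gencode vM6 (basic set) and deposited raw counts for each protein-coding gene. The deposited table also holds their DESeq2 comparison (mean, fold change, its error, statistic and p-values), which was not used.

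Counts were normalized with TMM, filtered with filterByExpr and tested with the quasi-likelihood test of edgeR 4.0.16 (R 4.3.3), with group as the only term and Benjamini-Hochberg adjustment over 12255 genes (threshold 0.01). Positive values mean higher on polyribosomes. Receptor shares were compared with two-sided exact permutation tests. Library totals ranged from 1044955 to 7361580 counts, and total RNA replicate 3 limits precision. Replicates differed by more than sampling noise (chi-square per degree of freedom from 3.59 to 21.5). The pairing rests on the study's division of each preparation into aliquots, on matching replicate numbers and on the correlations of their deviations (0.37, 0.26 and 0.38). Alternatives were DESeq2 1.42.0, other normalizations, no filter, the replicate block, a per-library offset for GC and exon length (Gencode vM21, 99.9% of genes), block and offset together, and leaving out each library. For the shares, Grm3 left out was chosen after seeing the data. On counts simulated for this comparison over 12143 genes, edgeR with group only recovered 81.0% of 200 genes changed by 1 log2 unit. The largest change of a receptor was smaller, 0.73 for Grm2 in the group-only fit. With the replicate block the simulation recovered fewer, 75.5%, while in the data the block called 3063 genes against 376 with group only. The simulation thus differed from the data, and its share recovered is not a measure of power for the receptors.

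The receptors and lists were chosen with earlier results of these data known. Named were the receptors, in each partner list the genes past the threshold (otherwise the 2 largest changes among genes of at least 10 CPM), and the 2 nearest genes per receptor. Other genes (Glul, Gfap, Slc1a2, Aqp4, Plcb1, Prkca) were named after their values were seen. The values of some genes that this rule names are not reported here.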

Additional observations from a re-analysis of the deposited data

How the results depend on the processing

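The number of calls depended on the fit, and the cause was not tested. Grm8 and Grm4 had the fewest counts, 23 and 46 in total RNA replicate 3. Grm2 kept its direction in all fits and passed the threshold in DESeq2 (0.75), with all genes of at least 1 count (0.75), with the replicate block (0.71) and with block and offset together (0.55). Grm3 passed only in the last of these (0.44). The sign of Grm5 turned with the GC and length offset (0.080) and with block and offset (0.10). Leaving out each library gave Grm2 0.58 to 0.84, Grm3 0.18 to 0.48, Grm4 0.26 to 0.40, Grm5 -0.27 to 0.023, Grm7 -0.14 to 0.0078 and Grm8 -0.54 to -0.39. Grm5 turned without polyribosome replicate 3 (0.020) or total RNA replicate 2 (0.023), and Grm7 without polyribosome replicate 1 (0.0078).

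Over all genes, 87 were higher and 289 lower. Higher calls numbered 321 in DESeq2, 42 with total counts only, 476 with all genes of at least 1 count, 1441 with the replicate block, 36 with the offset and 1010 with both. Lower calls numbered 566 with all genes of at least 1 count, 1622 with the block, 107 with the offset and 838 with both. Leaving out each library gave 0 to 61 higher and 22 to 208 lower, the fewest without total RNA replicate 2. Scaling by total counts only moved the median of all genes to -0.11 and the share of positive genes to 40.9%.

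Of the partner genes, 1 was higher in DESeq2, 2 with all genes of at least 1 count, 11 with the block and 8 with block and offset. Lower were 4, 3 and 9 in the first 3 of these. Leaving out each library gave 0 to 1 higher and 0 to 2 lower. Their median of 0.07 was 0.089 in DESeq2, -0.030 with total counts only, 0.10 with all genes of at least 1 count, 0.084 with the block and 0.045 with the offset, and 0.0065 to 0.080 when each library was left out. The group II share difference lay between 7.43 and 9.99 points when each library was left out, that of group I between -8.03 and -4.73 and that of group III between -2.70 and -1.18. As differences within preparations the shares gave an exact sign-flip p of 0.25, the smallest for 3 pairs, in each receptor group.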
